A study of Mus musculus with 5 samples.

Results

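The proteasome genes were taken as every protein-coding gene of the GENCODE M21 annotation of mm10 whose symbol starts with Psma, Psmb, Psmc, Psmd, Psme, Psmf or Psmg followed by a digit, which gave 50 genes of 21951 protein-coding gene records. They were examined for promoter binding of mJunB, a subunit of the AP-1 transcription factor, in mouse muscle stem cells (MuSCs). CUT&RUN-seq, in which an antibody directs a nuclease to the bound chromatin and the released fragments are sequenced, had been run with a JunB antibody on MuSCs of young mice (3 libraries, named here young 1, 2 and 3) and of aged mice (1 library). The remaining MuSC library profiled H3K27ac, the acetylated histone that marks active regulatory DNA. No genotype, treatment or age in months was given for these libraries in the labels. The methods described the cells as freshly isolated, the study's sort for MuSCs used surface markers, and no statement said whether the cells of a library came from 1 mouse or several. The age behind the H3K27ac library was also not given, and the methods tie these data to a separate epigenome mapping project as well. The design text of the series named DMSO-treated and MVC-treated mice where the labels named young and aged ones, and the labels were followed. In a peak sheet of the study that was held only in part, the columns headed young held the peaks of the library labelled aged and those headed aged matched peaks of young 1. The number of peaks that the study's reporting form gives for aged mice is, however, the length of the list labelled aged. The number that the form gives for young mice is the length of none of the young lists. The ages below are those of the labels.

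The proteasome is the protease that degrades most ubiquitin-tagged proteins. Its 20S core is a barrel of α and β rings with the catalytic sites inside, and the 19S regulatory particle at its ends binds the tagged substrate, removes the ubiquitin and unfolds the chain with a ring of ATPases. The genes are expressed in nearly all cells and are often raised together, in mammals through the factor Nfe2l1, which binds the antioxidant response element (ARE) in their promoters. Muscle uses the proteasome both to renew its contractile proteins and to lose mass in atrophy.

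Not every gene picked up by name encodes a subunit. The 50 genes comprised 8 of the 20S α ring, 7 constitutive β subunits, 4 inducible or tissue-restricted β subunits, 6 of the 19S ATPases, 11 of the 19S non-ATPase subunits, 5 activators, 1 inhibitor (Psmf1), 7 assembly chaperones and Psmc3ip. Psmc3ip is a meiotic recombination factor that shares only the letters of its name, and Psme2b is a copy of the activator gene Psme2.

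A gene was counted as bound in a library when a peak of that library lay within 3 kb of any of its transcription start sites (TSSs). By this count 6 proteasome genes were bound by mJunB in all 4 JunB libraries. They were Psmb5, which carries the chymotrypsin-like activity of the core, Psmc6, a 19S ATPase, Psmd1, the large scaffold of the 19S base, Psmd4, the ubiquitin receptor also known as Rpn10, and Psmd11 and Psmd12, scaffold subunits of the 19S lid. The stretch of 150 bases before the RefSeq start of each is given here because most of the summits described below lie in it or close to it. Sequences are RefSeq's, from GRCm38.p6 (the assembly of mm10), 5′ to 3′ on the strand of the gene. Capitals mark a match to the motifs searched, which were the ARE core in Psmb5, the ETS core in Psmc6, Psmd4, Psmd11 and Psmd12, a CCAAT box in Psmd4 and a TATA box in Psmd1.
Psmb5, chr14:54617996-54618145, minus strand: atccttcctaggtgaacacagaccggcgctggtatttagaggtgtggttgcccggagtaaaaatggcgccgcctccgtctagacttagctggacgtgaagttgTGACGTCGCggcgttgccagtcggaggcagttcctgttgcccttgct
Psmc6, chr14:45329674-45329823, plus strand: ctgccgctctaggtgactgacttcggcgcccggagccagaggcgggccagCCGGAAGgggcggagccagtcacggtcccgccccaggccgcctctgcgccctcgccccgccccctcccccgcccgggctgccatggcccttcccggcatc
Psmd1, chr1:86064469-86064618, plus strand: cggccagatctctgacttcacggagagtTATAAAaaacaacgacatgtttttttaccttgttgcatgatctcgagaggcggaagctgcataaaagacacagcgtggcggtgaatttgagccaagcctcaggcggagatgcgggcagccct
Psmd4, chr3:95042615-95042764, minus strand: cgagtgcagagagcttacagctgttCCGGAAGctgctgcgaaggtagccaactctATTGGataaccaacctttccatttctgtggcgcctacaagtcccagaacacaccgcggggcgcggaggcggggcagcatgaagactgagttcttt
Psmd11, chr11:80428465-80428614, plus strand: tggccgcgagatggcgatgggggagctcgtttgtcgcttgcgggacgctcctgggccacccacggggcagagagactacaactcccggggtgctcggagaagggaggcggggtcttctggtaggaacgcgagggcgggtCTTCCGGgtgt
Psmd12, chr11:107479378-107479527, plus strand: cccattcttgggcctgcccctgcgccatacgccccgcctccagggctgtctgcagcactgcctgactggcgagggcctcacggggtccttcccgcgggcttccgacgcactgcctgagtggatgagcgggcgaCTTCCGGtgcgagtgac
No stretch among these 6 held the AP-1 motif (TGACTCA or TGAGTCA).

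Psmb5 (ENSMUSG00000022193.7, chr14:54614119-54618022, minus strand) had a single peak per library, which covered the TSS in young 1 and the aged library and ended 20 and 16 bp upstream of it in young 2 and young 3. The fold enrichment at the summit, which is the ratio of the pileup to the background around it in that library, was 11.6 in young 1, 7.41 in young 2, 7.84 in young 3 and 5.99 in the aged library. Its summits lay 63, 105, 135 and 47 bp upstream of the TSS in the same order. All 4 peaks overlapped the H3K27ac peak of this promoter, whose fold enrichment of 7.10 was above the median over all genes with a promoter H3K27ac peak (4.29). The aged value was the lowest of the 4, although folds are relative to each library and cannot be compared as levels between them.

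Psmd1 (ENSMUSG00000026229.17, chr1:86064387-86139151, plus strand) had the strongest promoter peak of any proteasome gene in young 2 and in young 3. Its fold enrichment was 9.11 in young 1, 13.7 in young 2, 11.1 in young 3 and 7.36 in the aged library. The summits lay 21, 4, 17 and 84 bp upstream of the same TSS, at position 86064619, which is also the RefSeq start. The 4 peaks thus marked the same site, and the aged peak was again the weakest relative to its own background.

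Psmd12 (ENSMUSG00000020720.13, chr11:107479484-107504362, plus strand) had the strongest proteasome gene peak of the aged library, with a fold enrichment of 9.22 against 8.46, 7.86 and 7.35 in young 1, 2 and 3. Psmd4 (ENSMUSG00000005625.15, chr3:95032694-95042614, minus strand) had a fold enrichment of 8.25 in the aged library and 6.15, 7.02 and 5.94 in young 1, 2 and 3. The summits of Psmd12 lay 62 bp downstream, 7 bp downstream, 20 bp upstream and 16 bp upstream of its TSS in young 1, 2, 3 and the aged library. At Psmd4 they lay 232, 219 and 155 bp upstream in young 1, young 2 and the aged library and 1 bp downstream of another TSS in young 3. So among the 6 genes the aged fold lay above all 3 young values at Psmd4 and Psmd12 and below all 3 at the other 4 genes. The median fold over all peaks also differed between libraries, at 5.20, 7.74, 8.11 and 4.93 in young 1, 2, 3 and the aged library. With folds relative to each library and 1 aged library, this order is not a gain or loss with age.

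At the remaining pair, presence in all 4 libraries did not mean the same site throughout. Psmc6 (ENSMUSG00000021832.8, chr14:45329788-45349705, plus strand) had fold enrichments of 5.81, 6.90, 6.90 and 5.56 in young 1, 2, 3 and the aged library. Its young 1 summit lay 46 bp downstream of a TSS, while the others lay 231, 349 and 328 bp upstream. The young 1 peak did not overlap that of young 2 or young 3, and the aged peak of 801 bp spanned both places. Only the young 1 and aged peaks overlapped the H3K27ac peak.

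Psmd11 (ENSMUSG00000017428.16, chr11:80428615-80473248, plus strand) had peaks at its first TSSs in 2 libraries and an internal site in all 4. The peaks at the start had fold enrichments of 6.03 in young 2 and 5.36 in the aged library, with summits 89 and 213 bp from the 5′ end of the gene. The internal peaks had 9.31, 8.56, 8.26 and 4.54 in young 1, 2, 3 and the aged library, with summits 2126, 2079, 2043 and 2033 bp into the gene. This internal site lay in an intron, downstream of an internal TSS at position 80429887, and none of its 4 peaks overlapped an H3K27ac peak, whereas both peaks at the start did. The internal stretch that holds the 4 summits overlapped no annotated exon and held none of the motifs searched.
Psmd11 internal site, chr11:80430623-80430766, plus strand: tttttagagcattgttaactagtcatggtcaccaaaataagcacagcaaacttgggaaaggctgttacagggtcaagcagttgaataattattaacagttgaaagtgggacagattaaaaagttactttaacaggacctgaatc

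**Figure D1:**
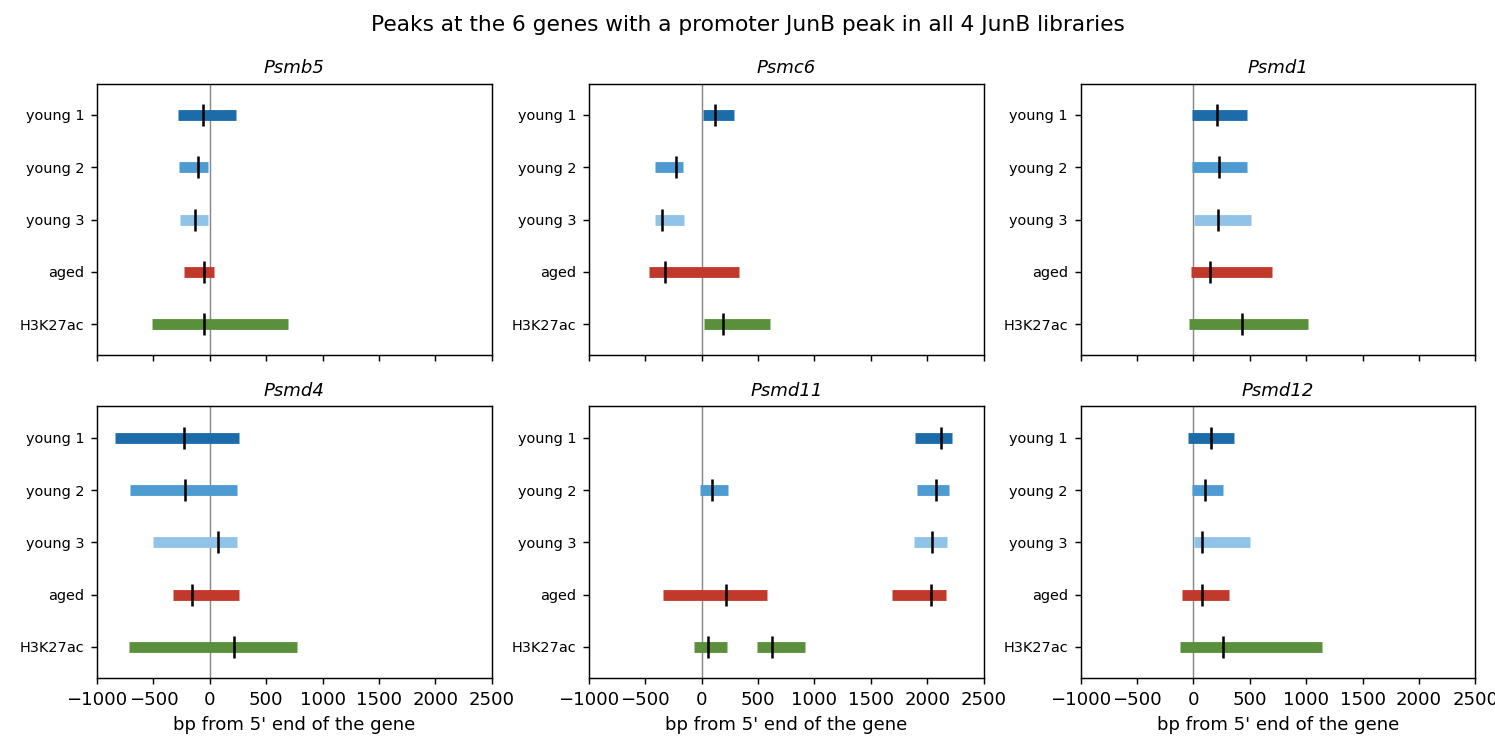
Peaks at the 6 proteasome genes bound in all 4 JunB libraries, in bp from the 5′ end of the gene record (x axis, positive is into the gene), by library (y axis). Bars are peaks and black ticks are summits, and a second H3K27ac peak of Psmd1 far inside the gene is outside the range drawn. Psmc6 shows separate young 1 and young 2 or 3 peaks, and Psmd11 shows an internal site in all 4 JunB libraries with no H3K27ac peak under it.

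Across the whole set, promoter JunB peaks were found at 12 of 50 proteasome genes in young 1 (24.0%), 9 in young 2 (18.0%), 8 in young 3 and 23 in the aged library (46.0%). The mean of the young libraries was 9.67 ± 2.08 genes (SD, n = 3), or 19.3% ± 4.16. Over all protein-coding genes the shares were 11.1%, 7.79% and 5.95% in young 1, 2 and 3, a mean of 8.28% ± 2.61 (SD, n = 3), and 23.9% in the aged library. The proteasome share was therefore above the background in each of the 4 libraries. Proteasome genes have a median of 5 annotated TSSs against 3 for a protein-coding gene. Another protein-coding TSS lay within 1 kb at 14 of the 50, against 14.6% of all protein-coding genes. The part of either in these shares was not tested.

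The distance to the background was smaller among genes with an active promoter. The H3K27ac library had a promoter peak at 46 of the 50 proteasome genes (92.0%) against 49.8% of all protein-coding genes. When only genes with a promoter H3K27ac peak were counted, 26.1%, 19.6% and 17.4% of the 46 proteasome genes had a promoter JunB peak in young 1, 2 and 3, and 23 of the 46 had one in the aged library. The background among all 10940 such genes was 20%, 14.5%, 11.0% and 42.4%. Applied to 46 genes, this background equals 9.21, 6.67, 5.04 and 19.5 genes, against the 12, 9, 8 and 23 counted. No test was made on these differences, which amount to a few genes in each library.

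**Figure D2:**
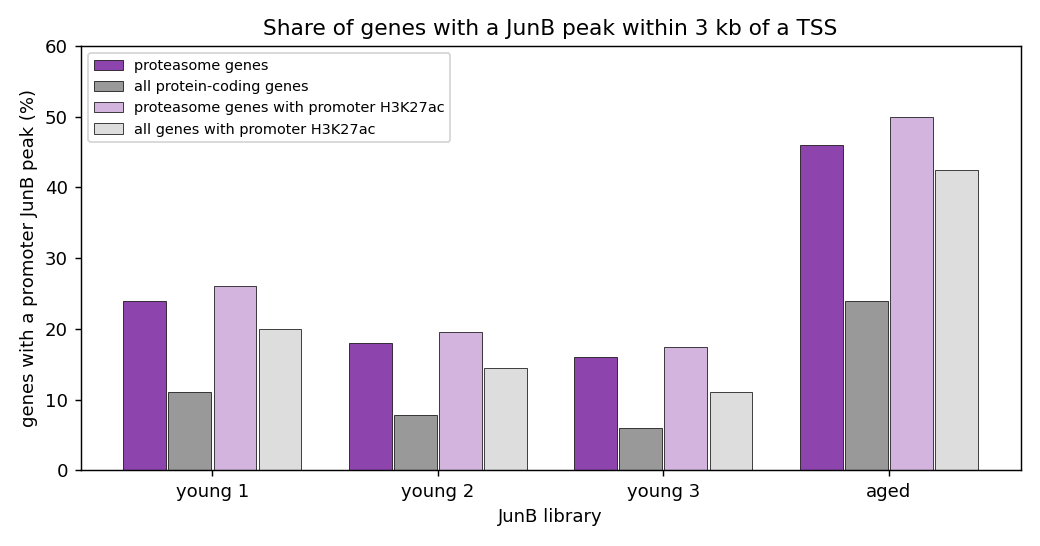
Share of genes with a JunB peak within 3 kb of a TSS (y axis, percent) in each JunB library (x axis), for the 50 proteasome genes, all protein-coding genes, and both restricted to genes with a promoter H3K27ac peak. The proteasome bars are above the background bars in every library, by less when only genes with promoter H3K27ac are counted.

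The 6 genes bound in all 4 libraries were also the only ones bound in all 3 young libraries. These 6 of 50 stand against a background of 4.56% of protein-coding genes for all 3 young libraries and 4.40% for all 4. Among genes with promoter H3K27ac it was 6 of 46 against 8.23%. At least 1 young library had a promoter peak at 15 of the 50 (background 12.8%), and at least 1 of the 4 JunB libraries had one at 26 (52.0%, background 25.9%). Among genes with promoter H3K27ac these shares were 32.6% against 23.1% for at least 1 young library. For at least 1 of the 4 JunB libraries they were 56.5% against 45.4%. The remaining 24 of the 50 had no promoter JunB peak in any library.

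The 20S core had 1 of the 6 genes bound in all 4 libraries, Psmb5. Among the 8 α ring genes 2, 2, 1 and 5 were bound in young 1, 2, 3 and the aged library, and none in all 4. Psma3, an α ring subunit, came closest, with no promoter peak in young 1 and strong ones elsewhere. Its fold enrichment was 11.1 in young 2, 10.5 in young 3 and 8.86 in the aged library, which ranked second among the proteasome genes in each, and its summits lay 60, 32 and 41 bp downstream of the same TSS. The nearest peak in young 1 was 64046 bp away, so the gap in that library was not a peak just outside the window. Psma5 had peaks in young 1 (4.67) and the aged library (7.98), at summits 388 and 345 bp downstream of the TSS. Psma1 was bound in young 2 (6.39) and the aged library (6.33), and Psma2 in young 1 alone (4.57). Psma7 and the testis gene Psma8 had no promoter JunB peak, and the H3K27ac fold of Psma7 (2.62) was the lowest of the 46.

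Among the 7 constitutive β genes 2, 1, 1 and 3 were bound in young 1, 2, 3 and the aged library. Besides Psmb5 these were Psmb3, with a fold of 3.74 in young 1 and 7.36 in the aged library at summits 673 and 648 bp upstream, and Psmb7 in the aged library. The genes of the other catalytic subunits of the standard core, Psmb6 and Psmb7, thus differed from Psmb5, since Psmb6 had no promoter JunB peak and Psmb7 had a single one. Psmb1, Psmb2 and Psmb4 had none either, with H3K27ac folds of 4.39, 4.50 and 5.03.

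The immunoproteasome genes Psmb8, Psmb9 and Psmb10 are induced by interferon and change the peptides made for antigen presentation. With Psmb11, this group had a promoter JunB peak in at least 1 library at 1 of 4 genes, against 25.9% of all protein-coding genes. Only Psmb9 had one, in young 2, with a fold enrichment of 7.29. It lay 138 bp upstream of a Psmb9 TSS and 50 bp from the TSS of Tap1, the divergent neighbour that encodes a peptide transporter, so the peak cannot be assigned to either gene. All of them carried a promoter H3K27ac peak, with folds of 5.33 at Psmb9, 4.11 at Psmb10 and the lowest at Psmb8. Psmb11, the β subunit of the thymus, was listed with H3K27ac only because the peak over the Psmb5 promoter reached within 3 kb of it. That summit lay 3356 bp upstream of the Psmb11 TSS and 55 bp upstream of the Psmb5 TSS.

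Of the 6 genes bound in all 4 libraries, 5 encode 19S subunits, as do 17 of the 50 genes. Of the 6 ATPase genes 1 was bound in each young library (Psmc6) and 3 in the aged library. Of the 11 non-ATPase genes 5, 4, 4 and 7 were bound in young 1, 2, 3 and the aged library, 4 of them in all 4 libraries and 8 in at least 1. All 17 had a promoter H3K27ac peak. Over all protein-coding genes 4.40% were bound in all 4 libraries and 25.9% in at least 1. Among those with promoter H3K27ac these shares were 8.23% and 45.4%. Psmd6, Psmd7 and Psmd14, the last of which encodes the deubiquitinase of the lid, had no promoter JunB peak in any library, and neither had the ATPase genes Psmc1, Psmc2 and Psmc4. Their H3K27ac folds ranged from 3.41 at Psmd7 to 8.56 at Psmd14, which shows that some of the most acetylated 19S promoters carried no JunB peak. Psmd2, a scaffold of the base, was bound in young 1 alone, with a fold of 4.57. Per library, the share of all protein-coding genes was 11.1%, 7.79%, 5.95% and 23.9% in young 1, 2, 3 and the aged library. With groups of 4 to 11 genes the counts by group are given as a description of the members only.

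Among the activator genes, Psme2, a subunit of the PA28 cap, had promoter peaks in young 1 (4.67), young 3 (6.25) and the aged library (6.60), at summits 202, 207 and 71 bp upstream. Rnf31, which lies on the opposite strand, had a TSS 393, 388 and 524 bp from those summits. Psme4, the PA200 cap, was bound in the aged library, and Psme1, Psme2b and Psme3 in none. The inhibitor gene Psmf1 had H3K27ac (4.54) and no JunB peak. Of the 7 chaperone genes, Psmd5 was bound in young 1 (7.33) and the aged library (6.96), while Psmd9 and Psmg4 were bound in the aged library and Psmd10, Psmg1, Psmg2 and Psmg3 in none. Psmc3ip, the gene that is no part of the proteasome, had H3K27ac and no JunB peak.

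**Figure D3:**
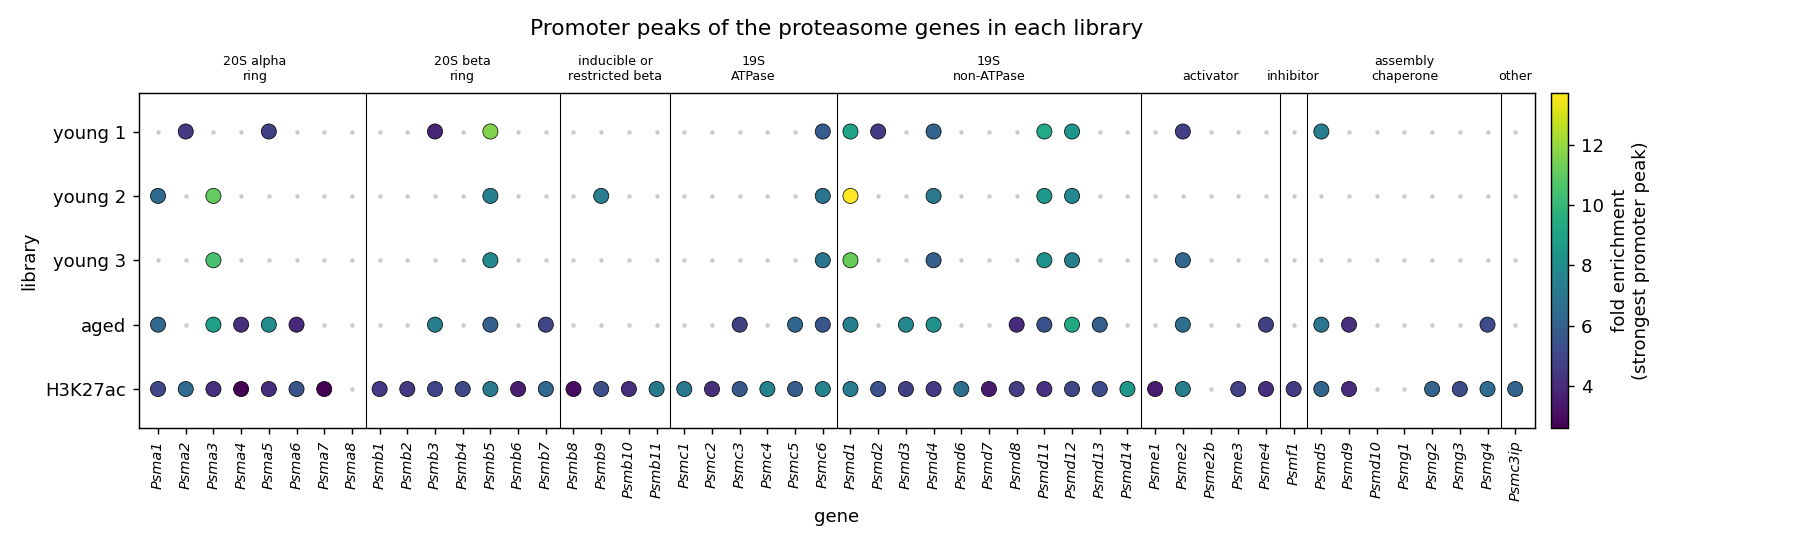
Promoter peaks of the 50 proteasome genes (x axis, grouped by role) in each library (y axis). A filled circle is a gene with a peak within 3 kb of a TSS, coloured by the fold enrichment of its strongest such peak, and a grey dot is a gene with none. Filled columns at Psmb5, Psmc6, Psmd1, Psmd4, Psmd11 and Psmd12 cross all JunB rows, the aged row holds 23 circles and the H3K27ac row 46.

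Which proteasome genes were bound in aged MuSCs and in no young library was the comparison closest to the study's interest in ageing. There were 11 of them, and they came from the 20S core, the 19S particle, the activators and the chaperones. They were Psma4, Psma6, Psmb7, Psmc3, Psmc5, Psmd3, Psmd8, Psmd9, Psmd13, Psme4 and Psmg4. This is 22.0% of the proteasome genes, against 13.1% of all protein-coding genes. Among genes with promoter H3K27ac it was 23.9% against 22.3%, so the aged-only share was near that of active promoters in general.

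The aged folds of these 11 genes ran from 3.90 to 7.70, overlapping those of the 6 genes above, whose strongest aged peaks ran from 5.36 to 9.22. The highest was at Psmd3, a lid subunit (7.70, 109 bp upstream), followed by Psmc5, a 19S ATPase (6.23, 154 bp upstream), and Psmd13, also of the lid (5.97, 147 bp downstream). Psmg4, a chaperone of α ring assembly, had 5.17 (112 bp downstream) and Psmb7, the trypsin-like catalytic subunit, had 4.87 (111 bp downstream). The fold was the same, 4.67, at Psmc3 (63 bp upstream) and Psme4 (786 bp downstream), and the same, 4.15, at Psma4 (35 bp upstream) and Psmd9 (1105 bp downstream). The lowest were Psmd8 (3.94, 175 bp downstream) and Psma6, an α ring subunit (3.90, 9 bp upstream). Equal folds with equal −log10 p occur at unrelated genes in these lists, such as Psmb3 and Psmd1 (7.36, −log10 p 13.5) in the aged library.

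Some of these 11 peaks are uncertain as promoter peaks of the named gene. Psmc5 shares its promoter with Ftsj3, whose TSS lay 79 bp from the summit, and Psmd13 with Sirt3, whose TSS lay 174 bp away. The Psma6 summit lay near an internal TSS, 14544 bp inside the gene, where the strongest H3K27ac peak of that gene also lay. At Psma4 the TSS of AY074887 was 143 bp from the summit. The Psmd9 peak (chr5:123170377-123170621) was counted through the most upstream TSS of the gene record, overlapped no H3K27ac peak, and lay far from the H3K27ac peak of Psmd9 (chr5:123228257-123228884). When every list was held to a −log10 p of at least 5.33, which all 4 can meet, the peaks of Psma4, Psma6, Psmd8 and Psmd9 were lost. Psmb3 joined the group as its young 1 peak fell below this value, and 8 genes remained bound in the aged library alone. The share of all protein-coding genes at this value was not taken.

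Conversely, 3 of the 50 proteasome genes (background 1.95%) had a young peak and none in the aged library, and each was bound in a single young library. These were Psma2 and Psmd2 in young 1, both with a fold of 4.57, and Psmb9 in young 2. The Psma2 summit also lay 72 bp from the TSS of Mrpl32, a neighbour on the opposite strand. No proteasome gene was bound in 2 or more young libraries and not in the aged one.

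The number of peaks in a list moved with these counts. The JunB lists held 9534, 4884 and 3863 peaks in young 1, 2 and 3 and 14123 in the aged library, and their lowest −log10 p was 3.01, 5.33, 5.22 and 3.01, so they had not passed the same threshold. Held to the length of the shortest list, 3863 peaks ranked by −log10 p, the lists gave 6 proteasome genes in young 1, 8 in young 2, 8 in young 3 and 11 in the aged library. The background was then 5.52%, 6.08%, 5.95% and 8.83% of protein-coding genes. The aged count remained the highest, but 4 proteasome genes in place of 11 were found in the aged library alone, where the background went from 13.1% to 3.21%. With 2000 peaks per library the counts were 4, 3, 3 and 4, against 2.86%, 2.95%, 2.92% and 4.57% of protein-coding genes, and 2 were found in the aged library alone (background 1.81%). The background was thus still higher in the aged library where the proteasome counts were level. With 1 aged library, age and library cannot be told apart, and no test was made between ages.

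**Figure D4:**
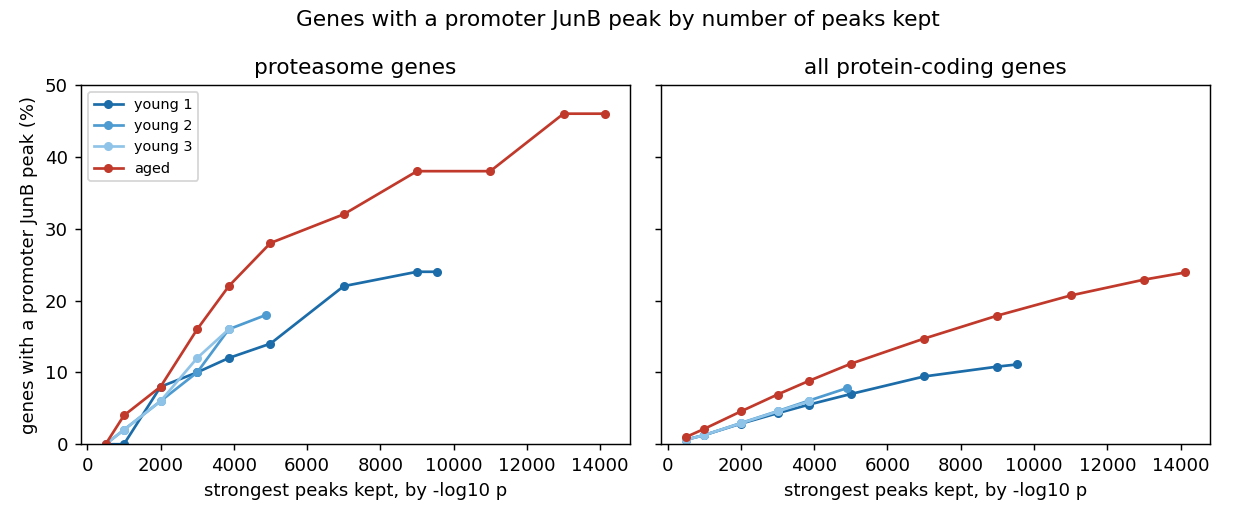
Share of genes with a promoter JunB peak (y axis, percent) against the number of strongest peaks kept by −log10 p (x axis), in each JunB library, for the 50 proteasome genes (left) and all protein-coding genes (right). The proteasome curves overlap at 2000 peaks, where they stand at 3 or 4 genes each, and the aged curve is above the young ones from 3000 peaks on.

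The JunB summits of the proteasome genes lay close to the TSS. The median distance of the nearest summit, without regard to side, was 134.5 bp in young 1, 60 bp in young 2, 83.5 bp in young 3 and 138 bp in the aged library. Over all protein-coding genes with a promoter peak it was 285, 282, 287 and 205 bp. A summit within 500 bp was found at 10 of 12, 9 of 9, 7 of 8 and 20 of 23 bound proteasome genes (83.3%, 100%, 87.5% and 87.0%), against 65.3%, 66.9%, 65.4% and 76.5% of all bound genes. Proteasome genes have a median of 5 annotated TSSs against 3 for a protein-coding gene, which by itself shortens the distance to the nearest. When only the 5′ end of each gene was used, the proteasome medians of young 1, 2 and 3 were 202, 158 and 171 bp. The median over all protein-coding genes was not taken in this way, so these values have no background.

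Sides differed little from the background for JunB. The summit was upstream of the TSS at 7 of 12, 6 of 9, 5 of 8 and 14 of 23 bound proteasome genes, which is 58.3%, 66.7%, 62.5% and 60.9% against 59.4%, 60.8%, 60.9% and 57.8% of all bound genes. H3K27ac summits lay mostly inside the gene, with 14 of 46 upstream (30.4%, against 45.7% over all genes) and a signed median of 129 bp downstream. For JunB the 3 kb window left Psmb11 as the only close case. The peak farthest from a TSS among the bound genes was 964 bp away (Psmd9, aged). The nearest JunB peak outside the window was 3125 bp away (Psmb11, young 1), which is the peak over the Psmb5 promoter. In young 2, young 3 and the aged library the Psmb5 promoter peak lay 3137, 3143 and 3181 bp from Psmb11. A slightly wider window would thus have counted Psmb11 as bound in every JunB library, through the peaks of Psmb5.

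**Figure D5:**
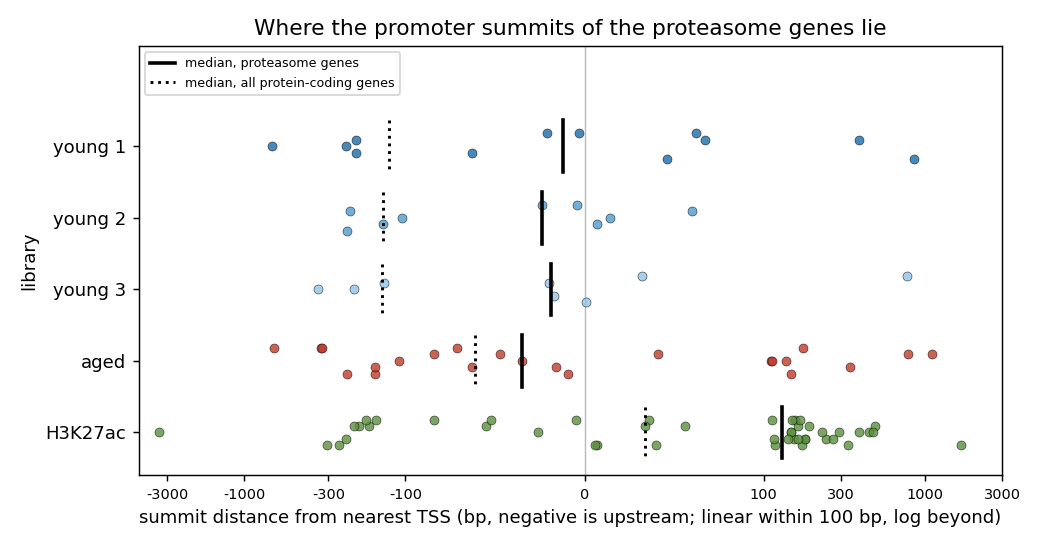
Distance from the nearest JunB or H3K27ac summit to the TSS (x axis, bp, negative is upstream, linear within 100 bp and logarithmic beyond) for each bound proteasome gene (points), by library (y axis, points spread for legibility). Solid bars are the medians of the proteasome genes and dotted bars those of all protein-coding genes. JunB medians lie between 12 and 35 bp upstream, and the H3K27ac median is 129 bp downstream.

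Where several libraries had a peak at a gene, the peaks mostly overlapped. Of the 15 proteasome genes bound in a young library, 7 were bound in just 1 of the 3. At the other 8 genes, 18 of 20 pairs of young libraries had overlapping peaks, and the exceptions were the young 1 peak of Psmc6 against young 2 and young 3. With the aged library included, over the 12 proteasome genes bound in at least 2 JunB libraries there were 46 pairs of libraries with a peak, of which 43 had overlapping peaks, with a median gap between summits of 56.5 bp and a largest gap of 468 bp (Psmc6). Of the 54 JunB promoter peaks at proteasome genes, 46 overlapped an H3K27ac peak, or 11 of 12, 8 of 10, 6 of 8 and 21 of 24 in young 1, 2, 3 and the aged library. This overlap was not counted for the promoter peaks of all genes. By gene, 4963 of the 5679 protein-coding genes with a JunB promoter peak in at least 1 library had promoter H3K27ac, as had all 26 such proteasome genes. The summits of 19 of the 54 lay outside the gene record, 15 in a noncoding exon part, 9 in a coding exon and 11 in an intron. The strength of these peaks was close to the background. Their median fold was 5.98, 7.41, 7.59 and 5.99 in young 1, 2, 3 and the aged library, against 5.81, 7.57, 8.05 and 5.37 over all genes with a promoter peak.

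H3K27ac folds with and without a JunB peak overlapped. The 26 proteasome genes with a JunB peak had a median H3K27ac fold of 5.23 (range 2.63 to 7.58) and those without one but with H3K27ac, 20 in number, had 4.66 (2.62 to 8.56). Over all protein-coding genes with promoter H3K27ac the corresponding medians were 4.33 and 4.25. The highest H3K27ac fold of the proteasome genes was that of Psmd14, which had no JunB peak.

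H3K27ac was missing at 4 genes, Psma8, Psmd10, Psme2b and Psmg1, and none of them had a promoter JunB peak. Psma8 encodes an α subunit made in the testis, Psme2b is a gene copy, Psmg1 a chaperone of α ring assembly, and Psmd10 the chaperone also called gankyrin. The nearest H3K27ac peak was 22664, 26825, 73560 and 17343 bp from Psma8, Psmd10, Psme2b and Psmg1. The nearest JunB peak of any library was between 12823 bp (Psmg1, young 1) and 274627 bp (Psma8, aged library) away, with 60065 bp for Psmd10 and 33410 bp for Psme2b.

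The promoters were searched for the letters of the factors named above, on both strands, from 250 bases before to 50 after the 5′ end of each gene. The AP-1 motif (TGACTCA or TGAGTCA) was in none of the 50 proteasome windows, against 4.59% of all protein-coding windows. The ARE core (TGACNNNGC) was in 6 of 50 (background 12.5%), those of Psmb2, Psmb5, Psmb6, Psmc6, Psmd7 and Psmd12. The cyclic AMP response element (TGACGTCA), whose letters cannot overlap the ARE core as spelled here, was in 2 windows, Psmb2 and Psmb8, against 2.43%. A CCAAT box (CCAAT) was in 38.0% against 39.0%, and the NRF-1 motif in 2 windows, Psma2 and Psmg1, against 1.22%. The heat shock element was in none, against 0.474%, and a TATA box (TATAAA) was in 4 windows against 12.6%. The AP-1 and ARE orders turned in wider windows. Within 500 bp on each side of the 5′ end, the AP-1 motif was in 26.0% of the proteasome windows against 12.1% of all windows, and the ARE core in 25 of 50 against 33.4%.

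The ETS core (CCGGAAG) stood apart by its share, in 17 of 50 windows (34.0%), against 10.8% of all windows and 17.6% of those with promoter H3K27ac. It was in 4 of 6 windows of the 19S ATPase genes and 6 of 11 of the non-ATPase genes. Outside the 19S it was in 3 of 5 activator windows, 2 of 7 chaperone windows and that of Psmc3ip. In the core it was in 1 of 8 α ring (the testis gene Psma8), none of 7 constitutive β and none of 4 inducible or restricted β windows. In the RefSeq promoters, which exist for 42 of the 50 genes, it was in 15 (35.7%, against 13.4% of RefSeq promoters). The α ring gene among these was Psma6. Of the 17 genes with an ETS core, 7 had a promoter JunB peak in at least 1 library and 4 had one in all 4 (Psmc6, Psmd4, Psmd11 and Psmd12). Over all 50 proteasome genes these counts were 26 and 6. The share among all protein-coding genes with an ETS core was not taken, and a link between the motif and JunB peaks was not tested. The split between the 19S and 20S genes was seen in these windows first and has no independent support.

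Few JunB summits had an AP-1 motif lying wholly within 50 bp. Among the proteasome peaks it was at 0 of 12 in young 1, 0 of 10 in young 2, 0 of 8 in young 3 and 1 of 24 in the aged library, against 4.75%, 3.54%, 5.26% and 2.75% of the promoter peaks of all genes. The ARE core was at 0 of 12, 2 of 10, 1 of 8 and 2 of 24, against 4.71%, 4.89%, 4.50% and 4.94% of the promoter peaks of all genes. The sites at summits are given in 27 or 29 bases, on the strand of the gene, with the match in capitals.
Psma3 ARE core, chr12:70974723-70974751, plus strand: tccgcggcctGCCGGGTCAgcaccatgag
Psmb5 ARE core, chr14:54618024-54618052, minus strand: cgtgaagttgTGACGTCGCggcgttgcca
Psmc6 ARE core, chr14:45329587-45329615, plus strand: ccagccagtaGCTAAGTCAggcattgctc
Psmd11 AP-1 motif, chr11:80428847-80428873, plus strand: atggtgctgcTGACTCActgtgtgtga
The Psma3 site was wholly within 50 bp of the summit in young 2, young 3 and the aged library, with its centre 42, 14 and 23 bp upstream of the summit. The Psmc6 site was found so in young 2 alone, the Psmb5 site in the aged library alone, since it reached past that limit in young 1, and the Psmd11 AP-1 motif in the aged peak at the start of the gene. These matches are descriptions of the letters and not evidence of binding by a given factor.

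Genes that act with the proteasome were examined from a list of 36, of which 35 were matched by name. JunB promoter peaks were found at 9, 10, 7 and 16 of them in young 1, 2, 3 and the aged library, and H3K27ac at 33. The backgrounds are those given for all protein-coding genes above. Those bound in all 4 libraries included Txnl1, a thioredoxin of the 19S particle, Ubb, a polyubiquitin gene, the segregase Vcp and its cofactor Ufd1, and Midn, which takes proteins to the proteasome without ubiquitin. The nearest summits at Ubb were not in 1 place. They lay 204 and 191 bp downstream in young 1 and the aged library and 1216 and 1145 bp upstream in young 2 and young 3. Nfe2l1, the activator of the proteasome genes, and its relative Nfe2l2 were bound in the aged library alone, with folds of 6.89 and 4.18. Other genes of the list were bound in the aged library alone as well. So were 13.1% of all protein-coding genes and 22.3% of those with promoter H3K27ac. The dedicated chaperone Pomp and the receptor Adrm1 had no promoter JunB peak.

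Of 8 MuSC markers, 5 had a promoter H3K27ac peak, among them Myod1 and Vcam1, while Pax7, Myf5 and Calcr had none. Of 9 markers of endothelial, immune, fibro-adipogenic and myofibre cells, Pecam1 and Dcn had one, and Pdgfra had the only promoter JunB peak, in the aged library. The H3K27ac summits of Pecam1 and Dcn lay 3394 and 2280 bp downstream of the nearest TSS. That of Pecam1 was counted only because the edge of the peak reached within 3 kb. The sort stated for MuSCs of young and aged mice left out cells with CD45, CD31 or SCA1 on the surface, and of their genes Pecam1 (CD31) had a promoter H3K27ac peak, with a fold of 3.37 and no JunB peak, while Ptprc (CD45) and Ly6a (SCA1) had no promoter peak of either kind. The part of such cells in the proteasome counts was not tested. For comparison, the 82 ribosomal protein genes, which are also expressed in nearly all cells, had promoter JunB peaks at 11, 10, 6 and 42 in young 1, 2, 3 and the aged library, with 76 carrying promoter H3K27ac. At 30 of them (36.6%) the peak was in the aged library alone, against 22.0% of the proteasome genes, and no test was made of that difference.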

How the data were processed

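The authors trimmed and filtered the reads, mapped them to mm10 (Bowtie2), removed duplicates and called peaks with MACS2, per the labels and methods. The deposited lists are 1 per library. Tool versions, a control library and whether reads were pooled for a list are not given in the sources used here. The deposited narrowPeak lists hold a fold enrichment per peak (a ratio to the local background), its −log10 p, its −log10 q and a score. For ranking and filtering the −log10 p or −log10 q as deposited served, and the score, which is 10 times the −log10 p in some of the authors' lists and 10 times the −log10 q in others, was not used. Depth per library is not in these files, since they hold no read counts, and so no interval is given.

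Peaks were assigned to genes with GENCODE M21 (peak interval within 3 kb of any TSS of a protein-coding gene), and distances were taken from the summit to the nearest TSS. No peak passed the end of its GRCm38 chromosome. Symbols of 42 of the 50 genes matched the RefSeq promoter table. Sequences came from GRCm38.p6. No test was made: counts of bound genes stand beside the share of all protein-coding genes where it was taken. It was not taken at some alternative settings. The SD is over the 3 young libraries, labelled biological replicates. Gene assignment and motif search were tested on simulated data. Python 3.11.15, numpy 2.4.6, pysam 0.24.0 and matplotlib 3.10.9 were used.

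The members, lists and tests were chosen with earlier results of these data known. Genes were named with their values when bound in all 4 JunB libraries, in the aged library alone or in all 3 young libraries alone, when among the 5 strongest peaks of a library, when without promoter H3K27ac, or when a summit lay within 50 bp of an AP-1 or ARE motif. Alternatives covered the promoter window, the TSSs used, the thresholds, the number of peaks, the members counted, the motif window and leaving out each young library. The RefSeq windows, the summit's own nearest TSS and the members without another TSS within 1 kb were added after the data were seen. A gene on the list of those that act with the proteasome is not reported here.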

Additional observations from a re-analysis of the deposited data

How the results depend on the processing

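The counts of bound proteasome genes depended mostly on how many peaks were kept. Of 180 alternative values, 142 stayed within the limits set for them and 38 moved. With 2000 peaks per library, 4, 3 and 3 genes were bound in young 1, 2 and 3 (mean 3.33) and 4 in the aged library, against 2.86%, 2.95%, 2.92% and 4.57% of all genes, with 2 in all 3 young libraries, 0 in all 4 and 2 in the aged library alone. With as many peaks as the shortest list, 6 genes were bound in young 1 and 11 in the aged library, 4 of them in the aged library alone. At a −log10 q of at least 5 there were 7 in young 1, 14 in the aged library and 5 in the aged library alone. When a peak had to cover the TSS, 7 genes were bound in young 1 and 4 in young 3 (mean of the young libraries 5.67), 3 in all 3 young libraries and 3 in all 4. The share of all protein-coding genes was not taken at this −log10 q or with peaks covering the TSS. These falls are therefore not set against a background. Leaving out each young library in turn gave means of 8.5 to 10.5, 6 to 7 genes in all young libraries, 6 to 7 in all JunB libraries and 11 to 14 in the aged library alone.

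The median summit distance in young 1 was 62 bp with peaks covering the TSS, 202 bp with the 5′ end alone, 67 bp at a −log10 q of at least 2, 63 bp at a −log10 q of at least 5, 67 bp at the common lowest −log10 p and 62.5 bp with 2000 peaks. In young 2 it was 19 bp with peaks covering the TSS and 158 bp with the 5′ end alone. In young 3 these were 18.5 and 171 bp, and 32 bp with 2000 peaks. In the aged library it was 98 bp with 2000 peaks, and for H3K27ac 283 bp with the 5′ end alone. The AP-1 motif was in 13 windows, the ARE core in 25, the CCAAT box in 31 and the TATA box in 12 within 500 bases on each side. Against the background, the wider windows turned the AP-1 share from below (0 of 50 against 4.59%) to above (26.0% against 12.1%) and the ARE core from 6 of 50 against 12.5% to 25 of 50 against 33.4%. In RefSeq windows the AP-1 motif was in 1 (Psmd9) and the cyclic AMP response element in 0 (background 2.64%), where it had been above its background. No paired analysis was possible because the aged and H3K27ac groups hold 1 library each and no test was made.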
